A study of Mus musculus with 10 samples.

Results

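The 40 genes described here encode the collagens, glycoproteins and proteoglycans of connective tissue, surface and skeletal proteins of mesenchymal cells, components of the basement membrane, and contractile proteins of smooth muscle. They were a fixed list of symbols, matched through the GENCODE mouse annotation, and each was found among the 33632 gene IDs of the deposited count table. By role they form 4 classes: 17 genes of the fibroblast matrix, 4 of the mesenchymal surface and cytoskeleton, 10 of the basement membrane and 9 of smooth muscle. The RNA came from colon crypts, the epithelial glands of the large bowel, of mice fed a normal diet whose livers were normal. There were 5 libraries labelled CKO, from mice with both Sox21 alleles floxed (Sox21fl/fl) that also carried Lgr5-EGFP-IRES-CreERT2/+, and 5 libraries labelled flox, from Sox21fl/fl mice. In CKO, Cre recombinase is made from the Lgr5 locus, a gene of intestinal stem cells, and acts once tamoxifen is given; the labels give no dose, time or age, and do not state whether flox mice received tamoxifen. All mice of both groups carried the floxed alleles, and the CKO mice alone carried the knock-in at Lgr5. The labels do not say that each library was a separate animal, so the p-values below measure the spread between these libraries.

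A crypt is an epithelial tube resting on a basement membrane of laminins, nidogen and type IV collagen. Outside that sheet lie fibroblasts, which secrete fibrillar collagens and the proteoglycans that bind them, and further out lie the smooth muscle cells of the muscularis mucosae and muscularis propria. Fibroblasts of the lamina propria are known as sources of Wnt ligands, R-spondins and BMP antagonists for crypt stem cells. Crypt preparations are meant to hold epithelium, and epithelial cells themselves make some laminin chains and fibronectin.

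Total counts were even, at 18926634 to 23642415 per library. Values are given as CPM, counts scaled to one common library size after normalization by trimmed mean of M values. On that scale 3 reads stand for 0.237 CPM in flox 1 and 0.227 CPM in flox 4, and for 0.104 to 0.165 CPM elsewhere. Read numbers quoted below are not scaled for this. The mitochondrial share of counts reached 26.5% for flox 1 and 29.3% for flox 4 and was 4.30% to 11.8% elsewhere; it averaged 6.51% ± 3.10 in CKO and 15.4% ± 11.6 in flox (SD, n = 5 each, two-sided exact permutation p = 0.167). These flox libraries also had normalization factors of 0.585 and 0.605 and stood apart on the first principal component, which held 48.2% of the variance of log2 CPM. Mitochondrial pseudogenes took another 11.3% and 9.97% of their counts, against 1.72% to 5.22% elsewhere. The slope of log2 CPM, less each gene's mean, on log2 exon length was -0.25 in flox 1 and -0.14 in flox 4. It was -0.068 to 0.11 elsewhere, so longer genes read relatively lower in flox 1 and flox 4. The part of this in the matrix values was not tested. Results for the 40 genes are given with and without these libraries. Sox21 itself was at 5.34 ± 1.94 CPM in CKO and 4.04 ± 1.80 CPM in flox (SD, n = 5 each; log2 fold change 0.38 ± 0.34 SE, edgeR adjusted p = 0.577), so the targeted transcript did not check the labels. The sources used here do not say which part of Sox21 is deleted.

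The mean level of most of these genes was higher in CKO than in flox, among them the fibrillar and type VI collagens and Pdgfra, but no single gene passed the test against the spread between libraries. The filter on low counts (filterByExpr of edgeR) kept 32 of the 40 genes. Of those, 0 passed an adjusted p of 0.05 by edgeR's quasi-likelihood test with Benjamini-Hochberg adjustment over 14963 genes, where 0% of all genes were called higher and 0% lower. DESeq2 gave an adjusted p to 36 of the 40 genes and called 0, against 0.336% of all genes called higher and 0.621% called lower by that tool. At an unadjusted edgeR p under 0.05, 10 of the 32 were higher in CKO (Col1a1, Col1a2, Col3a1, Col5a1, Col6a1, Col6a2, Col6a3, Sparc, Vim and Lamc1) and 0 were lower, where 5.05% of all genes tested were higher and 7.91% lower. The log2 fold change, CKO over flox, was above 0 in 30 of the 32 genes, with a median of 0.63, where 50.1% of all genes tested were above 0 with a median of 0.0010. It was 1 or more in 10 of the 32, where 1.6% of all genes reached that size. A gene could pass the filter through either group, so these counts describe the 32 genes and not the 8 that were left out. In bulk RNA, a difference in the number of stromal cells and one in the RNA per cell cannot be told apart.

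The 10 libraries did not split cleanly by group for any of the 32 genes. All CKO libraries stood above all flox libraries in 0 of the 32 and below them in 0, where 0.922% of all genes tested were in the first case and 1.26% in the second. At least 3 CKO libraries stood above every flox library in 13 of the 32, where 11.5% of all genes did; in 12 of the 13 those libraries included CKO 3, CKO 4 and CKO 5. CKO 5 was the highest of the 10 libraries in 22 of the 32 genes, while flox 4 was the lowest in 21 and flox 1 in 3.

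**Figure D1:**
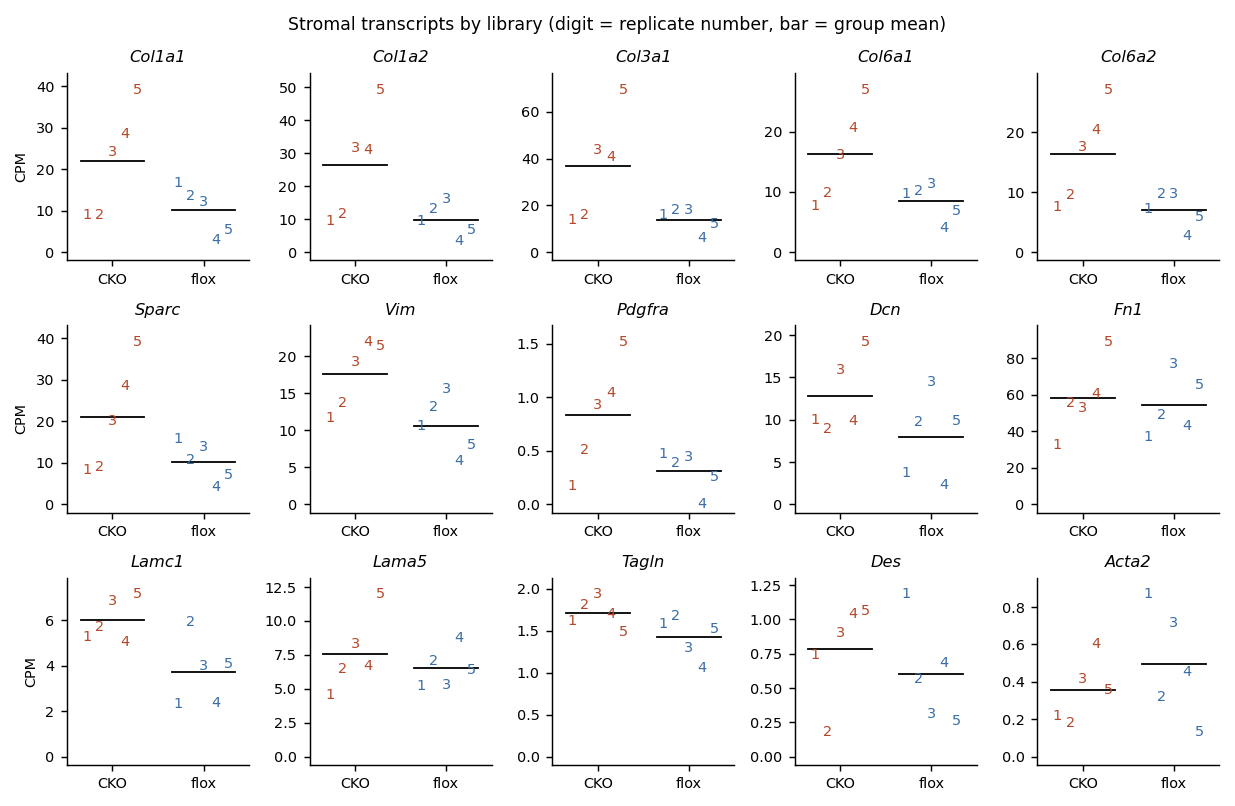
Level in CPM (y axis) of 15 stromal genes in each library, with CKO libraries on the left and flox libraries on the right of each panel; digits are replicate numbers and bars are group means. For the collagens in the upper row, CKO 3, CKO 4 and CKO 5 lie above every flox library and CKO 1 and CKO 2 lie among them, while Acta2 and Des show no such order.

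Type I collagen, the main fibril of connective tissue, is a trimer of the products of Col1a1 and Col1a2. Col1a1 (ENSMUSG00000001506) had 8.97, 8.98, 24.1, 28.6 and 39.3 CPM in CKO 1 to 5, against 16.6, 13.7, 12.0, 2.87 and 5.28 CPM in flox 1 to 5. The values of CKO 3, CKO 4 and CKO 5 were thus above every flox value and those of CKO 1 and CKO 2 were inside the flox range. The log2 fold change of 1.12 ± 0.51 (SE) had an edgeR adjusted p of 0.383. Col1a2 (ENSMUSG00000029661) had 9.32, 11.7, 31.5, 31.0 and 49.3 CPM in CKO 1 to 5, against 9.49, 13.0, 16.0, 3.55 and 6.88 CPM in flox 1 to 5, again with CKO 3, CKO 4 and CKO 5 above every flox library. A log2 fold change of 1.43 ± 0.48 (SE), the highest of the 32, came with an edgeR adjusted p of 0.365.

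Col3a1 (ENSMUSG00000026043) encodes type III collagen, which is laid down together with type I in soft tissue. It had 13.7, 16.0, 43.7, 40.7 and 69.6 CPM in CKO 1 to 5, against 15.7, 18.2, 18.0, 6.04 and 11.9 CPM in flox 1 to 5. CKO 5 was highest and flox 4 lowest, and the log2 fold change was 1.39 ± 0.44 (SE; edgeR adjusted p = 0.358). Without CKO 5 the log2 fold change of Col3a1 was 1.03, and that of Col1a1 was 0.81. The type V chains help to set the diameter of type I fibrils. Col5a1 averaged 2.08 ± 1.07 CPM in CKO and 0.986 ± 0.409 CPM in flox, and Col5a2 2.64 ± 1.61 CPM in CKO and 1.11 ± 0.731 CPM in flox (SD, n = 5 each). Their log2 fold changes were 1.06 and 1.22, and flox 4 held 0 reads of Col5a2; without CKO 5 that of Col5a2 was 0.79.

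Windows of 250 bases before the annotated start were searched for 4 promoter motifs on both strands, because a group of the collagen genes ordered the libraries alike. RefSeq promoters on GRCm38.p6 covered 26 of the 40 genes in 28 windows. The sequences of 2 collagens, of the mesenchymal filament gene Vim and of the muscle gene Myl9 are shown to set the matrix genes beside a muscle gene, with motif matches in capitals. They lie on the plus strand at chr1:45311288-45311537 (Col3a1), chr6:4505368-4505617 (Col1a2), chr2:13574061-13574310 (Vim) and chr2:156775214-156775463 (Myl9).
Col3a1: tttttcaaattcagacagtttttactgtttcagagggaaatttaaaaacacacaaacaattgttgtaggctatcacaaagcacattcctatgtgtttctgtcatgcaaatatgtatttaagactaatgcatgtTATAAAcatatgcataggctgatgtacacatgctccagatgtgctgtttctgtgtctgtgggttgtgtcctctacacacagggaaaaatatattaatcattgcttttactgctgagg
Col1a2: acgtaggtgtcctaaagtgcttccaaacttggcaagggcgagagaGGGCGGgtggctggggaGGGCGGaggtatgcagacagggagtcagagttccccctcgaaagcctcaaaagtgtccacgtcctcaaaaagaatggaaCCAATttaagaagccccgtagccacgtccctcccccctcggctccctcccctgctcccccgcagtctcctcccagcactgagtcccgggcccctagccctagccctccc
Vim: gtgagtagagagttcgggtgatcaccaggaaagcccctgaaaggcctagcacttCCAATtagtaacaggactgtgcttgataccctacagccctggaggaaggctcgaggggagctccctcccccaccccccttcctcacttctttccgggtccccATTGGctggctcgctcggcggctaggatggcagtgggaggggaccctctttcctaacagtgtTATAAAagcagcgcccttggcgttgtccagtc
Myl9: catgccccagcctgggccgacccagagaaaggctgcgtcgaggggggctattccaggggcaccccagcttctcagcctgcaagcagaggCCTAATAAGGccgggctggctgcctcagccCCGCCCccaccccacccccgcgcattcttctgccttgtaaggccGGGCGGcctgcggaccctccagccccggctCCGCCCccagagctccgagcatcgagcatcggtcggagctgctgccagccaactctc
The capitals mark TATAAA at -117 in Col3a1 and at -32 in Vim, CCAAT or its reverse complement at -109 in Col1a2 and at -196 and -94 in Vim, GGGCGG or its reverse complement in Col1a2 and Myl9, and a CArG box, the element bound by serum response factor, at -161 in Myl9. Positions count from the annotated start, and none of these matches overlap. TATAAA was found in 3 of the 28 windows (12.4% of 32851 windows of all genes) and CCAAT in 11 of 28 (33.8%). GGGCGG was found in 17 of 28 (32.7%), 6 of them among the 10 windows of fibroblast matrix genes. The CArG box was sought only in its strict form, CC and GG around A and T alone, as in the CCTAATAAGG of Myl9. That form was found in 1 of 28, that of Myl9 (1.47%). Forms with a G or C inside were not counted, and the window of the muscle gene Acta2 holds such forms. The count therefore does not show that the other windows lack a CArG box. These are letter matches and not measured binding. Col4a1 and Col4a2 start 21 bases apart on opposite strands, with upstream windows that do not overlap.

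Type VI collagen forms beaded microfibrils around cells from 3 chains. Col6a1 had 7.66, 9.85, 16.2, 20.7 and 27.0 CPM in CKO 1 to 5, against 9.73, 10.1, 11.4, 4.004 and 6.92 CPM in flox 1 to 5. Col6a2 had 7.61, 9.52, 17.5, 20.3 and 27.1 CPM in CKO 1 to 5, against 7.20, 9.62, 9.76, 2.72 and 5.80 CPM in flox 1 to 5. The pair followed one order in CKO, with CKO 5 highest, then CKO 4 and CKO 3. Log2 fold changes were 0.94 ± 0.36 for Col6a1, 1.21 ± 0.39 for Col6a2 and 1.41 ± 0.52 for Col6a3 (SE), and the smallest edgeR adjusted p among them was 0.359. Col6a3 was at 1.24 ± 0.548 CPM in CKO and 0.455 ± 0.339 CPM in flox (SD, n = 5 each). Col14a1, a collagen on the surface of fibrils, was at 0.747 ± 0.330 CPM in CKO and 0.966 ± 0.618 CPM in flox, a log2 fold change of -0.41 and the lowest in the class. It was at 0.0791 CPM in flox 1, and its log2 fold change was -0.84 without flox 1 and flox 4.

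Sparc, a collagen-binding glycoprotein, followed the fibrillar collagens. It had 8.18, 9.02, 20.0, 28.5 and 39.2 CPM in CKO 1 to 5, against 15.7, 10.8, 13.8, 4.31 and 6.96 CPM in flox 1 to 5 (log2 fold change 1.02 ± 0.46 SE, edgeR adjusted p = 0.381, and 0.67 without CKO 5). The small leucine-rich proteoglycans, which coat collagen fibrils, differed among themselves. Dcn (decorin) averaged 12.8 ± 4.53 CPM in CKO and 7.99 ± 4.96 CPM in flox, and its log2 fold change of 0.66 was 0.19 without flox 1 and flox 4. Bgn (biglycan) had 1.09, 1.48, 3.18, 7.24 and 9.09 CPM in CKO 1 to 5, against 4.83, 1.74, 2.45, 0.453 and 1.38 CPM in flox 1 to 5, with a log2 fold change of 1.04 ± 0.65 (SE). Lum (lumican) was at 0.181 to 1.42 CPM in CKO and 0.178 to 1.66 CPM in flox, so the groups covered one range. Its log2 fold change of 0.21 turned to -0.17 without CKO 3 and was 0.999 without flox 1 and flox 4. Bgn was at 0.59 without CKO 5 and at 1.26 without flox 1 and flox 4.

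The elastic fibre genes Eln (elastin) and Fbn1 (fibrillin, the microfibril around elastin) had log2 fold changes of 0.61 and 0.60, with intervals on both sides of 0. Without CKO 5 they were at 0.30 and 0.11, and without flox 1 and flox 4 at 0.74 and 0.25. Mgp, an inhibitor of calcification in soft tissue, averaged 1.999 ± 1.13 CPM in CKO and 1.19 ± 0.553 CPM in flox (SD, n = 5 each; log2 fold change 0.74, and 0.41 without CKO 5). Fn1 (fibronectin), the adhesive glycoprotein that cells bind through integrins, did not follow the collagens. It had 32.5, 55.5, 52.7, 60.5 and 89.0 CPM in CKO 1 to 5, against 36.9, 49.0, 76.8, 43.1 and 65.2 CPM in flox 1 to 5. CKO 1 was the lowest and CKO 5 the highest of the 10 libraries. The log2 fold change of Fn1 was 0.10 (95% interval -0.48 to 0.67), and -0.12 without flox 1 and flox 4.

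Mesenchymal surface and skeletal genes gave a mixed picture. Vim (vimentin), the intermediate filament of mesenchymal cells and of leukocytes, had 11.6, 13.6, 19.2, 21.9 and 21.4 CPM in CKO 1 to 5, against 10.5, 13.1, 15.6, 5.82 and 7.96 CPM in flox 1 to 5. Again CKO 3, CKO 4 and CKO 5 exceeded every flox library, and the log2 fold change was 0.72 ± 0.27 (SE; edgeR adjusted p = 0.372). Pdgfra, the receptor for platelet-derived growth factor that marks subepithelial fibroblasts, held 4, 14, 27, 19 and 43 reads in CKO 1 to 5, against 6, 11, 10, 0 and 6 reads in flox 1 to 5. At 0.836 ± 0.516 CPM in CKO and 0.314 ± 0.194 CPM in flox, its log2 fold change was 1.37 ± 0.63 (SE; edgeR adjusted p = 0.386). Pdgfrb, the related receptor of pericytes and fibroblasts, was more even, at 4.77 to 8.70 CPM in CKO and 5.21 to 7.09 CPM in flox (log2 fold change 0.24). Thy1, a surface protein of fibroblasts that mouse T cells also carry, was at 2.997 ± 0.965 CPM in CKO and 3.67 ± 1.92 CPM in flox. Its log2 fold change of -0.28 turned to 0.28 without flox 1 and flox 4.

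**Figure D2:**
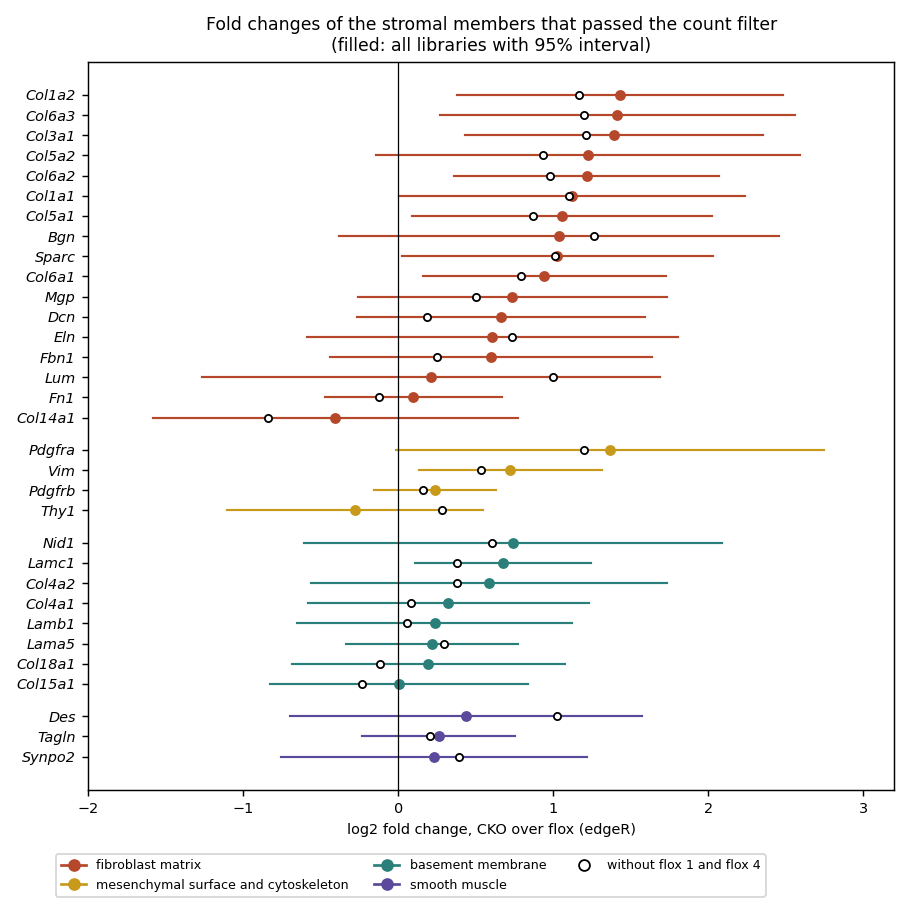
Log2 fold change, CKO over flox, of the 32 genes that passed the count filter, by class (x axis; filled points are all 10 libraries with 95% intervals of the edgeR fit, open points leave out flox 1 and flox 4). The fibroblast matrix genes reach 1.43 and most basement membrane and smooth muscle genes lie between 0 and 0.74, with intervals that cross 0 for all of these except Lamc1.

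Basement membrane genes stood closer to 0 than the fibroblast matrix. Of the 10, 8 passed the filter; their median log2 fold change was 0.28, and 0.19 without flox 1 and flox 4. Lamc1, the gamma chain shared by most laminins, had 5.25, 5.68, 6.85, 5.05 and 7.15 CPM in CKO 1 to 5, against 2.29, 5.89, 3.97, 2.34 and 4.07 CPM in flox 1 to 5. Its lowest flox values were flox 1 and flox 4, and the log2 fold change of 0.67 ± 0.26 (SE; edgeR adjusted p = 0.372) was 0.38 without them. Its partner chain Lamb1 had a log2 fold change of 0.23, and Nid1 (nidogen), which links laminin to type IV collagen, 0.74 ± 0.62 (SE). Lamb1 was at 0.049 without flox 4, and Nid1 at 0.30 without CKO 5. Lama5, the alpha chain of the main laminin under adult epithelium, had 4.51, 6.44, 8.30, 6.69 and 12.0 CPM in CKO 1 to 5, against 5.22, 7.03, 5.30, 8.76 and 6.40 CPM in flox 1 to 5, with overlapping groups and a log2 fold change of 0.22. Leaving out CKO 5 brought Lama5 to -0.0084.

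Type IV collagen is the network of the basement membrane. Col4a1 averaged 1.98 ± 1.15 CPM in CKO and 1.57 ± 0.647 CPM in flox, and Col4a2 1.24 ± 0.534 CPM in CKO and 0.812 ± 0.527 CPM in flox (SD, n = 5 each). Their log2 fold changes of 0.32 and 0.58 had 95% intervals on both sides of 0, and without CKO 5 they were at -0.083 and 0.31. The minor chains Col4a5 and Col4a6 did not pass the filter. Col4a5 held 5, 7, 10, 5 and 43 reads in CKO 1 to 5, against 0, 19, 4, 0 and 3 reads in flox 1 to 5, and Col4a6 held 2, 9, 10, 6 and 20 reads in CKO 1 to 5, against 0, 9, 4, 0 and 0 reads in flox 1 to 5. CKO 5 had the most reads of both chains. Col15a1 and Col18a1, collagens of the basement membrane zone that carry sugar chains, had log2 fold changes of 0.0053 and 0.19, and both were negative without flox 1 and flox 4 (-0.24 and -0.12).

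Smooth muscle transcripts were scarce in both groups. The 9 genes together held 73, 72, 136, 107 and 131 reads in CKO 1 to 5, against 76, 96, 76, 60 and 70 reads in flox 1 to 5. As summed CPM that was 2.61 to 5.87 in CKO and 3.03 to 6.01 in flox. A count of 3 reads, the limit a count of 0 allows, corresponds to 0.104 to 0.237 CPM in these libraries, for counting error only. Those that failed the filter were Acta2, Myh11, Cnn1, Actg2, Lmod1 and Myl9. Acta2, smooth muscle actin, held 5, 5, 12, 11 and 10 reads in CKO 1 to 5, against 11, 9, 16, 6 and 3 reads in flox 1 to 5. Myh11, the smooth muscle myosin heavy chain, held 0 to 5 reads in CKO and 0 to 4 reads in flox. Lmod1 (leiomodin) held 1 read in CKO 2 and 0 reads in the other 9 libraries. Actg2 is close in sequence to Acta2, and the deposited counts of that pair may share reads.

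Tagln (transgelin), an actin-binding protein of smooth muscle, was at 1.62, 1.81, 1.94, 1.70 and 1.49 CPM in CKO 1 to 5, against 1.58, 1.67, 1.29, 1.06 and 1.51 CPM in flox 1 to 5. Its spread in CKO was small and its libraries did not follow the collagens, CKO 5 being the lowest CKO library. Des (desmin), the muscle intermediate filament, was at 0.181 to 1.06 CPM in CKO and 0.260 to 1.19 CPM in flox, highest in flox 1. Synpo2, a protein of the muscle Z-disc, was at 0.290 to 1.37 CPM in CKO and 0.533 to 1.03 CPM in flox. For Synpo2, as for the collagens, CKO 3, CKO 4 and CKO 5 lay above every flox library, CKO 3 only narrowly. CKO 1 and CKO 2 lay below every flox library for Synpo2. Log2 fold changes were 0.26 for Tagln, 0.43 for Des and 0.23 for Synpo2, with edgeR adjusted p of 0.570 or more. Without flox 1 and flox 4, Des was at 1.02 and Synpo2 at 0.39, and without CKO 4 Synpo2 was at 0.015. The median of these 3 was 0.26, and over all 9 genes without the filter it was -0.16. Cnn1 (calponin) and Myl9 (a myosin light chain) had their highest values in flox 4 (0.604 CPM) and flox 1 (0.554 CPM).

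The classes were then set side by side in each library by a score, the mean over the tested genes of a class of log2 CPM minus the flox mean. The fibroblast matrix score was 0.0015, 0.22, 1.13, 1.09 and 1.83 in CKO 1 to 5, against 0.28, 0.37, 0.66, -1.19 and -0.13 in flox 1 to 5. CKO 1 and CKO 2 were below 3 of the 5 flox libraries, and flox 4 was far below the rest. The basement membrane score had the same highest and lowest library at less than that height, with 0.10, 0.25, 0.52, 0.44 and 0.94 in CKO 1 to 5, against -0.02, 0.54, 0.43, -0.88 and -0.07 in flox 1 to 5. The smooth muscle score was -0.04, -0.64, 0.54, 0.67 and 0.55 in CKO 1 to 5, against 0.56, -0.02, -0.37, -0.04 and -0.14 in flox 1 to 5. In that class flox 1 stood at the height of CKO 3, CKO 4 and CKO 5, and CKO 2, not flox 4, was lowest. The mesenchymal score ran from 0.0077 to 0.82 in CKO and from -0.57 to 0.47 in flox.

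**Figure D3:**
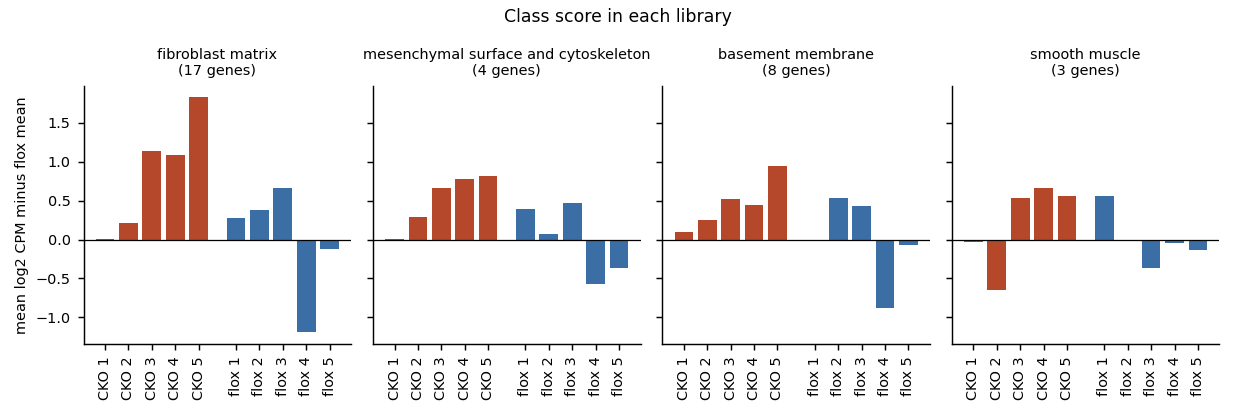
Class score (y axis, mean log2 CPM minus the flox mean) of the 4 classes in each library, CKO on the left and flox on the right of each panel. The fibroblast matrix ranges from -1.19 in flox 4 to 1.83 in CKO 5, and the smooth muscle bars do not follow that order.

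Summed over its 17 genes, the fibroblast matrix reached 106, 139, 239, 259 and 392 CPM in CKO 1 to 5, against 129, 146, 185, 72.2 and 126 CPM in flox 1 to 5. The ratio of that sum to the smooth muscle sum was 33.0, 53.3, 50.8, 44.2 and 84.6 in CKO 1 to 5, against 21.4, 42.7, 54.7, 15.9 and 41.7 in flox 1 to 5. The ratio of matrix to basement membrane was 6.30, 6.82, 9.90, 12.5 and 11.7 in CKO 1 to 5, against 9.40, 6.21, 9.54, 4.92 and 7.56 in flox 1 to 5. Both ratios overlapped between groups, and flox 4 was the lowest library in each.

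**Figure D4:**
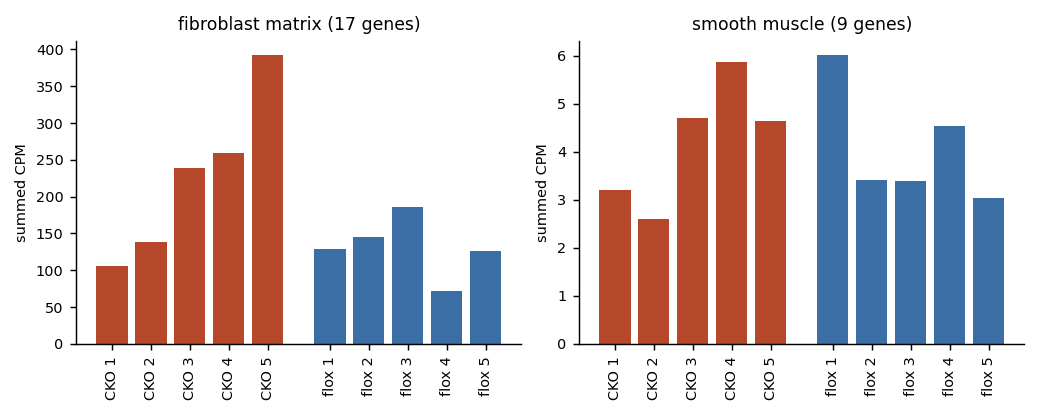
Summed CPM (y axis, from 0) of the 17 fibroblast matrix genes and of the 9 smooth muscle genes in each library, CKO on the left and flox on the right. The matrix sum runs from 106 to 392 in CKO and from 72.2 to 185 in flox, while the muscle sum stays at 6.01 or below in every library.

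Levels between genes can be compared only per length, for which the authors' deposited FPKM (fragments scaled by gene length and library total) were used. In CKO, Fn1 was highest at a mean of 14.4 FPKM, followed by Vim and Sparc at 13.0 FPKM each, Dcn at 10.5 and Col3a1 at 10.2. In flox, Fn1 was at 11.5 FPKM, Vim at 6.37, Dcn at 5.57, Sparc at 4.95 and Mgp at 3.56. Mgp was at 7.78 FPKM and Col1a1 at 4.59 FPKM in CKO. These orders rest on gene lengths that the authors do not state: the FPKM of Mgp imply a median of 302 bases in CKO and 328 bases in flox, where its annotated exons span 1187 bases, so the rank of a gene is uncertain. The spread between libraries was wide, as for Vim with 7.47 to 20.0 FPKM in CKO and 2.31 to 11.1 FPKM in flox, and the ranges of neighbours in these orders overlapped. Of the muscle genes, Tagln was highest in both groups, with 1.56 FPKM in CKO and 1.01 FPKM in flox.

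Further genes of matrix biology were read from lists that were not tested as lists. Over all genes tested, 50.1% had a log2 fold change above 0. Of 6 further collagens tested, 3 had positive and 3 negative log2 fold changes, with Col16a1, a fibril-associated collagen, at 0.99 ± 0.34 and Col5a3, another type V chain, at 1.66 ± 0.72 (SE). Enzymes that fold, trim and crosslink collagen had 12 of 17 above 0 and a median of 0.18; the crosslinking enzyme Loxl2 was at 1.38 ± 0.56 and Bmp1, which trims procollagen, at 0.65 ± 0.27 (SE). Of 13 further matrix glycoproteins 10 were above 0 with a median of 0.24, and Fbln2 (1.26) and Fbln1 (-0.54), both fibulins, lay on opposite sides. Of 12 other basement membrane genes 7 were above 0, with Lama4, a laminin chain of vessels and muscle, at 1.28 and Lama3, a chain of epithelial laminin, at 0.50. Of these lists edgeR called 0 genes. At an unadjusted p under 0.05, where 5.05% of all genes were higher and 7.91% lower, 2 of 6 further collagens were higher and 1 lower, 2 of 17 processing enzymes were higher and 0 lower, 2 of 13 glycoproteins were higher and 1 lower, and 2 of 12 basement membrane genes were higher and 0 lower; DESeq2 called Fbln2 alone (adjusted p = 0.0475, against 0.325 by edgeR).

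Timp3, a metalloproteinase inhibitor that binds to the matrix, had the largest difference among these further genes. It had 3.85, 4.34, 10.2, 5.59 and 17.3 CPM in CKO 1 to 5, against 0.633, 1.95, 2.85, 1.59 and 1.86 CPM in flox 1 to 5. All CKO libraries were above all flox libraries. The log2 fold change was 2.19 ± 0.47 (SE), with an adjusted p of 0.208 by edgeR and of 0.00121 by DESeq2. The list of matrix proteases and inhibitors was divided, with 5 of 9 above 0, Timp3 among them. At an unadjusted edgeR p under 0.05, 2 of the 9 were higher (Timp3 and Timp4) and 2 lower (Mmp14 and Mmp15). Of all genes, 5.05% were higher and 7.91% lower at that limit. The membrane protease Mmp14 was at 55.9 ± 6.29 CPM in CKO and 72.7 ± 9.38 CPM in flox (SD, n = 5 each, log2 fold change -0.38). Of 13 contractile genes beyond the 9, 7 were above 0 and 6 below. Smtn (smoothelin) was at -0.70 and Pdlim7, an adaptor at actin filaments, at -0.96. The 18 contractile genes listed summed to 458 to 552 CPM in CKO and 515 to 645 CPM in flox. The 9 smooth muscle genes summed to 6.01 CPM or less, so these contractile genes are not read as a measure of muscle. Which cells made them was not tested. TGF-beta is a growth factor known to induce collagen genes in fibroblasts. Of its 12 ligands, receptors and effectors tested, 10 were above 0 with a median of 0.29, where 50.1% of all genes were above 0. The ligand gene Tgfb1 was below 0, at -0.18. The 16 genes listed summed to 152 CPM in flox 1 and 187 CPM in flox 4. That sum was 232 to 280 CPM in the other flox libraries and 246 to 285 CPM in CKO. No median of this list was computed without flox 1 and flox 4. Smad4, the shared signal transducer of that pathway, was at 0.37 ± 0.17 (SE), and at 0.14 with the mitochondrial share as a covariate. Of the contractile and TGF-beta lists edgeR and DESeq2 called 0 genes; at an unadjusted edgeR p under 0.05, 1 contractile gene was higher and 3 were lower, and 1 TGF-beta gene was higher and 0 were lower.

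**Figure D5:**
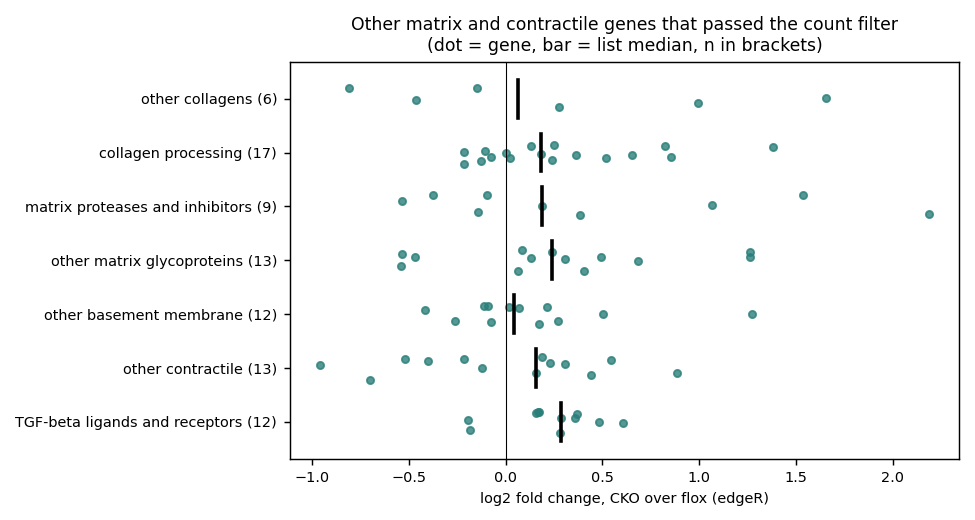
Log2 fold change, CKO over flox (x axis), of single genes (dots) in 7 further lists of matrix, contractile and TGF-beta genes, with the number that passed the count filter in brackets and the median as a bar. Medians lie between 0.04 and 0.29, and Timp3 is the dot at 2.19.

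Markers of other cells were read beside the matrix genes. The 10 epithelial markers, led by keratins, summed to 12998 to 23490 CPM in CKO and 17988 to 28341 CPM in flox, far above the markers of every other cell type listed; 7 of the 10 had a negative log2 fold change. Epcam was at 1028 ± 77.0 CPM in CKO and 871 ± 231 CPM in flox, and the keratin Krt18 at 663 ± 249 CPM in CKO and 1457 ± 644 CPM in flox. CKO 5 had the lowest epithelial sum and the highest matrix sum, and flox 4 had the highest epithelial sum and the lowest matrix sum. Libraries between these ends did not all keep that order. CKO 4 had the highest epithelial sum in CKO (23490 CPM) with a matrix sum of 259 CPM. Flox 1 had an epithelial sum of 27610 CPM with a matrix sum of 129 CPM, above the 106 CPM of CKO 1. Leukocyte markers summed to 17.8 to 37.5 CPM in CKO and 15.2 to 26.4 CPM in flox, again with CKO 5 highest and flox 4 lowest, and mesothelial markers to 10.1 to 23.6 CPM in CKO and 4.38 to 20.9 CPM in flox with the same libraries at the ends. Ptprc, the common leukocyte antigen, was at 6.21 ± 2.35 CPM in CKO and 6.33 ± 2.02 CPM in flox. The leukocyte sum of CKO 5 was mostly Lyz2, a myeloid lysozyme, at 24.7 CPM, while Ptprc (3.93 CPM) and the T cell gene Cd3e (0.884 CPM) were lowest of the 10 libraries in CKO 5. Of the mesothelial genes Lrrn4 was at 3.33 ± 1.25 CPM in CKO and 1.62 ± 1.01 CPM in flox, Wt1 at 1.11 ± 0.502 CPM in CKO and 0.552 ± 0.372 CPM in flox, and Msln at 6.11 ± 2.56 CPM in CKO and 6.17 ± 3.44 CPM in flox; 3 of the 4 had a higher mean in CKO. Endothelial markers summed to 7.64 to 11.1 CPM in CKO and 11.2 to 13.4 CPM in flox, so CKO lay below flox in every library. A large part of that sum, which averaged 9.08 CPM in CKO and 12.3 CPM in flox, was the vessel marker Vwf. Vwf was at 3.57 ± 0.487 CPM in CKO and 6.49 ± 0.564 CPM in flox (called lower by DESeq2, while edgeR gave an adjusted p of 0.174). Of the 5 endothelial genes tested, 2 were above 0 and 3 below, with a median log2 fold change of -0.021. Pecam1 was at 1.77 ± 0.867 CPM in CKO and 1.60 ± 0.582 CPM in flox. The part of these cell types in the matrix values was not tested.

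The 16 listed markers of fibroblasts around crypts summed to 125 to 210 CPM in CKO and 70.4 to 298 CPM in flox, of which C3, a complement gene that epithelium also makes, took 162 ± 29.4 CPM in CKO and 185 ± 85.2 CPM in flox. Foxl1 averaged 0 CPM in CKO and 0.01 CPM in flox, and Grem1 0.03 CPM in CKO and 0.01 CPM in flox. Cd34 was at 3.12 ± 1.54 CPM in CKO and 2.07 ± 0.848 CPM in flox (SD, n = 5 each), with CKO 4 and CKO 5 above every flox library and flox 4 lowest. Named after their values were seen, Dpt was at 0.0724 to 0.637 CPM in CKO and 0 to 0.237 CPM in flox, with CKO 3, CKO 4 and CKO 5 above every flox library, and Prrx1 at 0 to 0.242 CPM in CKO and 0 CPM in every flox library. The C3 values set the sum, so it does not show how the scarcer markers behaved. Of the 16 markers, 5 passed the filter. Their log2 fold changes were above 0 in 2 and below 0 in 3, C3 among the latter, with a median of -0.14. Cd34, Dpt and Prrx1 therefore do not stand for the list. Pericyte markers summed to 1.95 to 4.42 CPM in CKO and 1.96 to 4.12 CPM in flox, and markers of enteric neurons and glia to 2.10 to 4.06 CPM in CKO and 2.42 to 4.41 CPM in flox. Kit and Ano1, markers of the interstitial cells of Cajal, were at 37.1 and 111 CPM in CKO and at 33.9 and 86.2 CPM in flox, but crypt epithelium can express both. The adipocyte list summed to 7.85 to 19.8 CPM in CKO and 18.6 to 23.2 CPM in flox, nearly all from Lipe and Cidec, with Adipoq at 0 CPM in CKO and 0.0087 CPM in flox.

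The genes outside all lists whose log2 CPM was most like the fibroblast matrix score over the 10 libraries were Tyrobp and Ptgis (Pearson r = 0.98 each), Gm20186, Thbd, Nab2 and Eif3j1 (r = 0.96 each). Tyrobp encodes a signalling adaptor of myeloid cells, Ptgis makes prostacyclin, and Thbd is thrombomodulin. These were the highest of all genes tested in libraries that share differences of depth and composition, and are given as a description. Without flox 1 and flox 4, 33 of the 40 genes passed the filter, 28 were above 0, where 53.3% of all genes were, and the median was 0.50. At an unadjusted edgeR p under 0.05 only Col6a2 and Col6a3 were then higher, where 3.34% of all genes were, and edgeR called 0 of the 33 genes (0% of all genes) and DESeq2 0 of 35 (0.209% of all genes called higher). The fibroblast matrix median was 0.93 in those 8 libraries and 0.67 when CKO 5 was left out of the 10.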

How the data were processed

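RNA sequencing of colon crypts gave 10 libraries, 5 labelled CKO and 5 labelled flox. Libraries came from a TruSeq RNA kit with mRNA enrichment, per the labels' protocols, and the submitters' processing notes name fastp and HISAT2 without versions. The sources used here give no genome build, annotation, counting tool or strand setting, so overlapping, antisense and closely related genes may share reads. The deposited counts are whole reads per Ensembl gene ID, not normalized; the deposited FPKM are the authors' length-scaled values, with the lengths not stated.

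Of 33632 IDs, 26095 matched a symbol in GENCODE M21 (GRCm38, used for names), and filterByExpr kept 14963. Counts were compared with edgeR 4.0.16 in R 4.3.3 (TMM, robust quasi-likelihood fit, group only, Benjamini-Hochberg, threshold 0.05). The fit was tested on simulated counts. Scores used log2 CPM with a prior count of 2. Total counts of 18926634 to 23642415 per library limit precision through counting error; low genes rest on few reads. The libraries of lowest mutual difference still had a chi-square of 29.97 per degree of freedom, so no library was a repeat.

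The 40 genes, the 7 further lists of matrix, contractile and TGF-beta genes and the 9 lists of cell type markers were chosen with earlier results of these data known. Named were all 40 genes, the 2 genes of smallest p in each other list, set marker genes, Sox21 and the 6 genes most like the matrix score. Some further genes of the lists were named after their values were seen. Values of 2 genes of these lists are not reported here, and one of them is left out of the plot of the further lists; counts, medians and sums include them. Promoter sequences are RefSeq's. Alternatives were other scalings, DESeq2 1.42.0, voom of limma 3.58.1 with and without quality weights, limma on log2 FPKM, other filters, a non-robust fit, the replicate number as a block, the mitochondrial share as a covariate, and leaving out libraries.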

Additional observations from a re-analysis of the deposited data

Results flagged for a closer look

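Values were checked for a library standing apart within its group of 5, by the gap to its nearest neighbour over the range of the group. Of 88 groups checked, 6 held such a library. Chance alone gives about 5%, or 1 in 20, for independent and normally distributed values. Genes on few reads and genes that vary together do not meet this, so the 6 are given as a description. Col5a2 was at 5.377 CPM in CKO 5, where the other CKO libraries held 1.36 to 2.47 CPM. Col4a5 was at 1.521 CPM in CKO 5, against 0.219 to 0.346 CPM in the other CKO libraries, and at 0.6746 CPM in flox 2, against 0 to 0.178 CPM in the other flox libraries. The other 3 rest on few reads: Actg2 at 0.3291 CPM in CKO 4, Myl9 at 0.1645 CPM in CKO 4 and Lmod1 at 0.0362 CPM in CKO 2, the last being its single read.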

How the results depend on the processing

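None of the 40 genes was called under any alternative run. The count of genes called over the whole table, 0 higher and 0 lower by edgeR (756 and 1183 at an unadjusted p under 0.05), was 58 higher and 107 lower by DESeq2, 17 higher and 35 lower by voom with quality weights, 1 higher and 2 lower without a filter, 1 lower with the mitochondrial share as a covariate, and 0 higher and 0 to 2 lower when a library was left out (2 without flox 2). The fibroblast matrix median stayed positive in every alternative, between 0.54 (voom with quality weights) and 1.38 (total counts only), and between 0.67 (without CKO 5) and 1.23 (without CKO 1) when a library was left out. The basement membrane median ran from 0.08 to 0.63 and the mesenchymal median from 0.24 to 0.81. The smooth muscle median was -0.20 by DESeq2 and -0.16 without a filter, both over 9 genes in place of 3. Total counts only moved the median of all genes to 0.36, log2(FPKM + 1) to 0.30 and log2(FPKM + 0.1) to 0.41, and values under those settings are to be read against that shift.

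Genes near 0 changed sign, and the cause was not tested. With total counts only, Thy1 was at 0.21 and Mmp14 at 0.035. On log2(FPKM + 1), Thy1 was at 0.20, Col15a1 at -0.053, Lama5 at -0.53 and Mmp14 at 0.10, and on log2(FPKM + 0.1) they were at 0.31, -0.12, -0.85 and 0.11. By voom Col15a1 was at -0.14; with quality weights Fn1 was at -0.31, Col4a1 at -0.045, Col15a1 at -0.16 and Col18a1 at -0.31. With the mitochondrial share as a covariate, Fn1 was at -0.12, Thy1 at 0.36, Col15a1 at -0.23, Col18a1 at -0.082 and Lamb1 at -0.018. Without flox 1 and flox 4, Fn1 was at -0.12, Thy1 at 0.28, Col15a1 at -0.24 and Col18a1 at -0.12. When each library was left out in turn, Col15a1 ran from -0.24 to 0.25, Lum from -0.17 to 0.82, Fn1 from -0.11 to 0.27, Col4a1 from -0.083 to 0.53, Lama5 from -0.0084 to 0.36 and Col18a1 from -0.0037 to 0.67.

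Deviations of libraries with the same replicate number correlated at -0.30, 0.28, 0.09, 0.40 and -0.06. Libraries of different number were not compared, so these values cannot tell whether the numbers pair the libraries. With the replicate block, 0 genes were called in either direction, the fibroblast matrix median was 0.87 and Col15a1 was at -0.031. Low read numbers limit the smooth muscle genes and the minor type IV chains.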

Other observations

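For Lama5 the deposited counts and the deposited FPKM differ in sign. Dividing counts by FPKM gives the gene length that the FPKM imply, which for most genes hardly varies between libraries: over 12921 genes with at least 0.2 FPKM in every library the median ratio of the longest to the shortest was 1.16. Of the 40 genes, 16 had such a value in all libraries; the ratio was 1.01 for Col1a1, 1.63 for Fn1, 1.87 for Col3a1, 2.43 for Lamc1, 2.88 for Thy1 and 3.91 for Col15a1. For Lama5 the implied length was 9502, 5416, 10187, 4740 and 2691 bases in CKO 1 to 5, against 2277, 3229, 1693, 1732 and 1715 bases in flox 1 to 5, a ratio of 6.02, which 0.48% of those genes reached. Mean Lama5 was at 2.0 FPKM in CKO and 2.86 FPKM in flox, and at 7.59 CPM in CKO and 6.54 CPM in flox.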
